A study of Mus musculus with 20 samples.

Results

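The genes described here are the 9 that carry an interferon signal from the cell surface to the nucleus: the receptor chains Ifnar1, Ifnar2, Ifngr1 and Ifngr2, the kinases Jak1, Jak2 and Tyk2, and the transcription factor subunits Stat2 and Irf9. They were taken by symbol from a table of 23402 genes, and all 9 were found. Total RNA came from MC38 tumours, a subcutaneous model of colon adenocarcinoma in mice. The 20 libraries form a vehicle group, Control, and a group given ATBx peri-tumorally, P.T.ATBx, with 10 libraries each. Values after ± are SDs over the 10 libraries of a group. ATBx is a usual short form for antibiotic treatment, and the labels give no agent, dose, schedule, mouse strain or age. Nothing in the labels says that each library came from its own mouse, so p-values measure the spread between libraries, part of which may be technical.

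Interferons act through paired receptor chains. Type I interferons bind IFNAR1 with IFNAR2, to which the kinases TYK2 and JAK1 are attached, and interferon gamma binds IFNGR1 with IFNGR2, which hold JAK1 and JAK2. The kinases phosphorylate STAT proteins. STAT2 and IRF9 are subunits of the complex ISGF3, which binds interferon-stimulated response elements, while STAT pairs formed after interferon gamma bind gamma-activated sites. Stat2 and Irf9 are themselves interferon-inducible genes, whereas the receptor chains are broadly expressed on tumour, stromal and immune cells.

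The promoters of Stat2, Irf9 and Tyk2 are shown because the RNA of these genes moved together between libraries in both groups by Pearson's r. The limits of these relations, and the relations of Jak2 with the same genes, are given below. Sequences are from RefSeq, build GRCm38.p6, and cover the 250 bases before a transcript start on the coding strand, with 9 of the 9 genes matched. The window of Tyk2 overlaps its outermost annotated transcript. Runs of letters of 3 kinds were searched and are in capitals where found: GAAA, any 2 bases and GAAA again on either strand, the core of an interferon-stimulated response element, and the gamma-activated form TTC and GAA with 3 bases (TTCNNNGAA) or 4 bases between them, which read alike on both strands.
Stat2 (chr10:128270248-128270497, plus strand): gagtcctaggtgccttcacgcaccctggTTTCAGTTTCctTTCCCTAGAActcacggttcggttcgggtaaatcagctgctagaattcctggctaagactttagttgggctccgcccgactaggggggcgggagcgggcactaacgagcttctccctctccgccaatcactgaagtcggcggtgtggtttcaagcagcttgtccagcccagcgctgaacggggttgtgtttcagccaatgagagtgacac
Irf9 (chr14:55603735-55603984, plus strand): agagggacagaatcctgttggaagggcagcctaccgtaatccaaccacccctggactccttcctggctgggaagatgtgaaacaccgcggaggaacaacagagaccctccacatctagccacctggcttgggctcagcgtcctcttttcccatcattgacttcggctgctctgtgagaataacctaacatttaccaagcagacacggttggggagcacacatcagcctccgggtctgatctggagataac
Tyk2 (chr9:21131276-21131525, minus strand): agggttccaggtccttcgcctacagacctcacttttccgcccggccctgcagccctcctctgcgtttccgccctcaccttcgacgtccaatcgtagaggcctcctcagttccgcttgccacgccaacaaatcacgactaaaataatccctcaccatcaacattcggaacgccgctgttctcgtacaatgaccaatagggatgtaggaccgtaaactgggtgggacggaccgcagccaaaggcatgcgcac
In the Stat2 window, TTTCAGTTTC lay 222 to 213 bases before the start and TTCCCTAGAA 210 to 201 bases before it, with no shared base. Of the other 8 genes, Ifnar2 held TTCCTGGAA, 214 to 206 bases before its start, and Ifngr2 held TTCCCGGGAA, 91 to 82 bases before its start. Among 32851 RefSeq promoter windows of this length, 2.98% held the GAAA repeat, 7.02% TTC and GAA with 3 bases between them and 5.85% with 4. Irf9 has a second start in the same table (window chr14:55604329-55604578), also with no match. Such letter matches describe the sequence and are not evidence of binding.

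All 9 genes are protein coding. Of the receptor genes, 3 sit in 1 cluster on chromosome 16 (GRCm38), with Ifnar2 at 91372783 to 91405589, Ifnar1 at 91485032 to 91510523 and Ifngr2 at 91547059 to 91564007. Il10rb, which encodes a chain shared by the interleukin 10 and interferon lambda receptors, lies between Ifnar2 and Ifnar1 at 91406157 to 91425834, 567 bases from the end of Ifnar2. The 4 genes span 191225 bases. Ifngr1 (19591949 to 19610229) and Stat2 (128270498 to 128292853) are on chromosome 10, Jak1 (101151974 to 101265282) on chromosome 4, Tyk2 (21104068 to 21131393) on chromosome 9, Irf9 (55603985 to 55610030) on chromosome 14 and Jak2 (29251803 to 29313095) on chromosome 19. Of the 9, 2 overlap a gene that the table measures. Apof, which overlaps Stat2, was at most 0.278 FPKM, and Raver2, which overlaps Jak1, was at most 0.348 FPKM.

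FPKM, the unit of the table, by its usual definition divides the fragments of a gene by its length and by the mapped total of the library. Division by length lets levels be set side by side between genes. The deposited values were already level between libraries (median-of-ratios factors from 0.999 to 1.001), and the scaling that gave this is unknown. Summed FPKM was 556770 to 752782 per library and 15527 to 16345 genes were above 0, while read totals are unknown. Control 1 and Control 3 stood apart, with a median Spearman correlation to the other libraries of 0.9762 and 0.9661 against 0.9816 to 0.9866 in the other 18. Control 3 had the highest summed adipocyte (1429 FPKM), fibroblast (1507) and epithelial (114) markers, and Control 1 had the largest share of summed FPKM in the noncoding RNAs Rpph1 and Rmrp (20.48%). Ratios and correlations on the deposited scale that lost or gained a call without these 2 libraries are given both ways. The labelled cancer cells share the samples with other cells: the pan-leukocyte gene Ptprc ran from 28.2 to 59.2 FPKM and the fibroblast gene Col1a1 from 136 to 326. The epithelial gene Epcam ran from 0.297 to 10.6 FPKM. By itself Epcam cannot tell cells of a colon adenocarcinoma from other epithelial cells. In such bulk RNA, fewer cells of a type and less RNA per cell cannot be told apart.

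The receptors and Jak1 had nearly the same level in both groups, and the values of Stat2 and, to a lesser size, Irf9 were lower after P.T.ATBx without passing the test over all genes. Of the 9 genes 0 passed (limma, Benjamini-Hochberg adjusted p under 0.05), beside 0.845% of the 12788 genes tested (0.461% higher and 0.383% lower). At an unadjusted p under 0.05 there was 1 of 9, Stat2, which was lower, beside 13.6% of all genes tested in either direction and 6.08% lower. Fold changes compare P.T.ATBx with Control as log2(FPKM + 1), a scale that understates the change of low genes. Of these log2 fold changes, 6 of the 9 were negative, with a median of -0.01, beside 48.5% negative and a median of 0.00 over all genes. For each of the 9 the groups overlapped, and 0.133% of all genes tested had groups that did not.

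Ifnar1, the chain that completes the type I receptor, ran from 19.7 to 22.5 FPKM in Control (median 21.8) and from 19.7 to 23.8 in P.T.ATBx (median 22.4). Its means were 21.6 ± 0.846 and 22.1 ± 1.26 FPKM, giving log2 fold change 0.03 (SE 0.034, adjusted p = 0.713, limma). In 5 P.T.ATBx libraries Ifnar1 lay above the highest Control library and in 1 below the lowest by less than the rounding shown, so the groups overlapped over most of their range. Ifnar2, the high-affinity binding chain, ran from 42.4 to 54.6 FPKM in Control (median 50.8) and from 42.6 to 55.9 in P.T.ATBx (median 50). On the log2 scale the change was -0.01 (SE 0.047, adjusted p = 0.931, limma). Control 3 and P.T.ATBx 2 were the lowest library of their group for both chains of the type I receptor.

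Ifngr1, the ligand-binding chain of the interferon gamma receptor, was the most abundant of the 9 genes by mean. It ran from 59.9 to 77.9 FPKM in Control (median 65.9) and from 57.3 to 75.9 in P.T.ATBx (median 66.3), with means of 66.4 ± 4.92 and 66.5 ± 5.47. Ifngr2, its signalling partner, ran from 38.6 to 45.3 FPKM in Control (median 40.6) and from 38.6 to 43.7 in P.T.ATBx (median 40.7). Both had log2 fold changes of 0.00, with SE 0.049 and adjusted p = 0.988 for Ifngr1 and SE 0.034 and adjusted p = 0.985 for Ifngr2 (limma). The 95% intervals of the 4 receptor genes were narrow: 0.97 to 1.08-fold for Ifnar1, 0.93 to 1.06 for Ifnar2, 0.93 to 1.07 for Ifngr1 and 0.95 to 1.05 for Ifngr2.

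**Figure D1:**
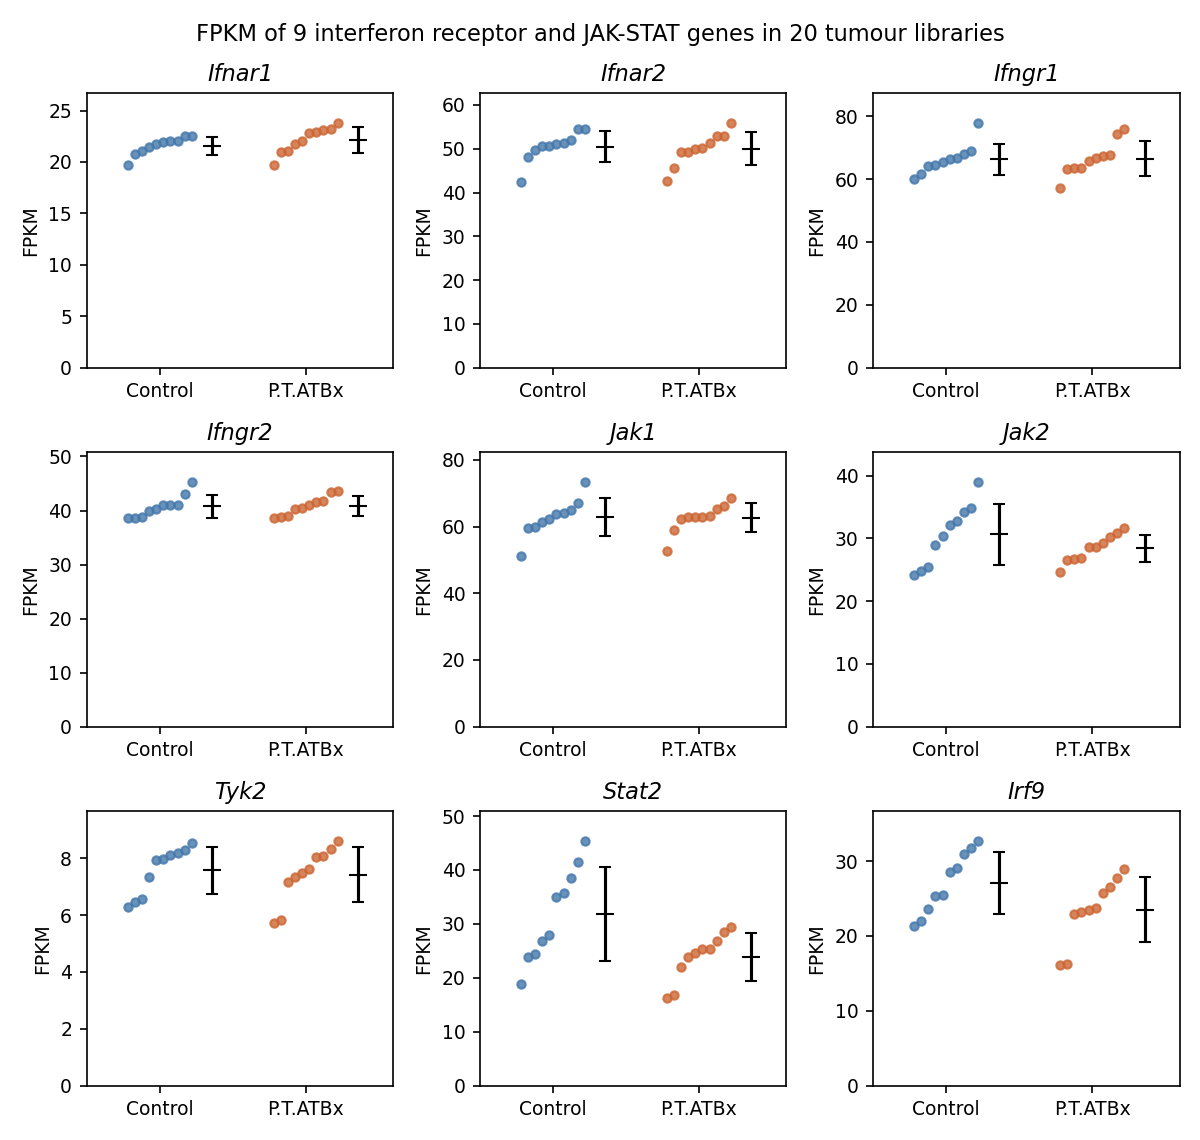
FPKM of the 9 genes (vertical axes from 0) in 10 Control and 10 P.T.ATBx libraries, 1 point per library ordered by value, with mean and SD beside the points. The receptor genes and Jak1 sit at like levels in both groups, while the highest Stat2 value is 45.4 FPKM in Control against 29.5 in P.T.ATBx, with groups that overlap.

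Jak1, the kinase used by both receptor types, was at 51.2 to 73.4 FPKM in Control (median 63.2) and 52.7 to 68.6 in P.T.ATBx (median 63). On the log2 scale the change was 0.00 (SE 0.052, adjusted p = 0.995, limma), with a 95% interval of 0.93 to 1.08-fold. Jak2, the partner kinase on IFNGR2, ran from 24.1 to 39 FPKM in Control (median 31.3) and from 24.6 to 31.6 in P.T.ATBx (median 28.7). In 5 of 10 Control libraries Jak2 lay above every P.T.ATBx library, and the other 5 lay within or just below the P.T.ATBx range. The log2 fold change of Jak2 was -0.09 (SE 0.074, adjusted p = 0.63, limma), and without Control 1 and Control 3 it was -0.17 (adjusted p = 0.166, limma). Tyk2, the kinase attached to IFNAR1, was the least abundant of the 9, at 6.3 to 8.55 FPKM in Control (median 7.95) and 5.73 to 8.61 in P.T.ATBx (median 7.55). On the log2 scale the change was -0.03 (SE 0.07, adjusted p = 0.899, limma), and P.T.ATBx 1 and P.T.ATBx 2 lay below every Control library.

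Stat2, the STAT subunit particular to ISGF3, ran from 18.8 to 45.4 FPKM in Control (median 31.5) and from 16.3 to 29.5 in P.T.ATBx (median 24.9). The Control median lay above all 10 P.T.ATBx libraries, and 5 Control libraries lay above every P.T.ATBx library. The other 5 Control libraries, between 18.8 and 28 FPKM, fell inside the P.T.ATBx range. Means were 31.8 ± 8.67 and 23.9 ± 4.43 FPKM, giving log2 fold change -0.37 (SE 0.14, unadjusted p = 0.0182, adjusted p = 0.256, limma) with a 95% interval of 0.63 to 0.95-fold before adjustment. Over 31 alternative fits the value was negative throughout, from -0.50 to -0.31, with adjusted p from 0.0693 to 0.515 (limma). The value furthest from 0, with adjusted p = 0.0693, came without Control 1 and Control 3.

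Irf9, the DNA-binding subunit of ISGF3, ran from 21.3 to 32.7 FPKM in Control (median 27.1) and from 16.1 to 29 in P.T.ATBx (median 23.6). P.T.ATBx 1 and P.T.ATBx 2, at 16.3 and 16.1 FPKM, lay below every Control library, and 4 Control libraries lay above every P.T.ATBx library. Means were 27.1 ± 4.09 and 23.5 ± 4.33 FPKM, with log2 fold change -0.21 (SE 0.10, adjusted p = 0.385, limma). Over the 31 alternative fits Irf9 ran from -0.26 to -0.15, with adjusted p from 0.16 to 0.693 (limma).

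Sums of cell markers were taken beside these values, and of 11 sums only the fibroblast one passed a permutation test. Summed over 4 T cell markers, Control had 14 to 38.9 FPKM and P.T.ATBx 9.67 to 27.7, with 4 of 4 markers negative, 0 past the adjusted threshold and a log2 difference of -0.38 (adjusted permutation p = 0.461). Summed over 5 fibroblast markers, Control had 1069 to 1507 FPKM and P.T.ATBx 889 to 1108. Such a sum weighs genes by their level, and Dcn, at 467 to 743 FPKM, was the highest of the 5. The Control median was above all 10 P.T.ATBx libraries for that sum (log2 difference -0.22, two-sided permutation p = 0.00018, adjusted p = 0.00198 over 11 marker sums), with 5 of 5 markers negative and 1 past the adjusted threshold. The 4 pan-leukocyte markers summed to 379 to 663 and 337 to 655 FPKM, and the 6 macrophage markers to 925 to 1329 and 841 to 1377. No defining marker of these 4 lists was at 0. With Ptprc as a covariate Stat2 had -0.34 (adjusted p = 0.118, limma) and Irf9 -0.19 (adjusted p = 0.219, limma). That fit takes in 1 leukocyte gene and does not cover the fibroblast markers. The part of cell makeup in the Stat2 and Irf9 values was not tested.

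By mean FPKM over the 20 libraries the order was Ifngr1 (66.5), Jak1 (62.7), Ifnar2 (50.2), Ifngr2 (40.8), Jak2 (29.5), Stat2 (27.9), Irf9 (25.3), Ifnar1 (21.9) and Tyk2 (7.5). By group the order differed for Stat2, which in Control (31.8) lay above Jak2 (30.7) and in P.T.ATBx (23.9) below it (28.4). Within libraries, Ifnar2 exceeded Ifngr2, Ifngr2 exceeded Jak2 and Ifnar1 exceeded Tyk2 in 20 of 20, and Jak1 exceeded Ifnar2 in 19 of 20. Neighbours whose mean log2 ratio was below its SD were Ifngr1 and Jak1 (0.08, SD 0.18), Jak2 and Stat2 (0.13, SD 0.25), Stat2 and Irf9 (0.11, SD 0.17), and Irf9 and Ifnar1 (0.19, SD 0.27). The first named was higher in 16, 14, 14 and 18 of 20 libraries, so the order of these neighbours was not the same in every library. Whether their mean levels differed was not tested.

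The 9 genes differed in how much they varied between tumours. The within-group coefficient of variation was 4.83% for Ifngr2 and 4.91% for Ifnar1, and of genes with a mean between 0.5 and 2 times theirs, 9.32% and 6.93% varied less. Ifnar2 (7.22%), Ifngr1 (7.83%) and Jak1 (8.08%) stood near the middle of genes of like level. Jak2 (12.8%) and Tyk2 (12.1%) varied more. Irf9 at 16.7% and Stat2 at 24.7% were among the most variable, with 91.6% and 97.2% of genes of like level below them.

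**Figure D2:**
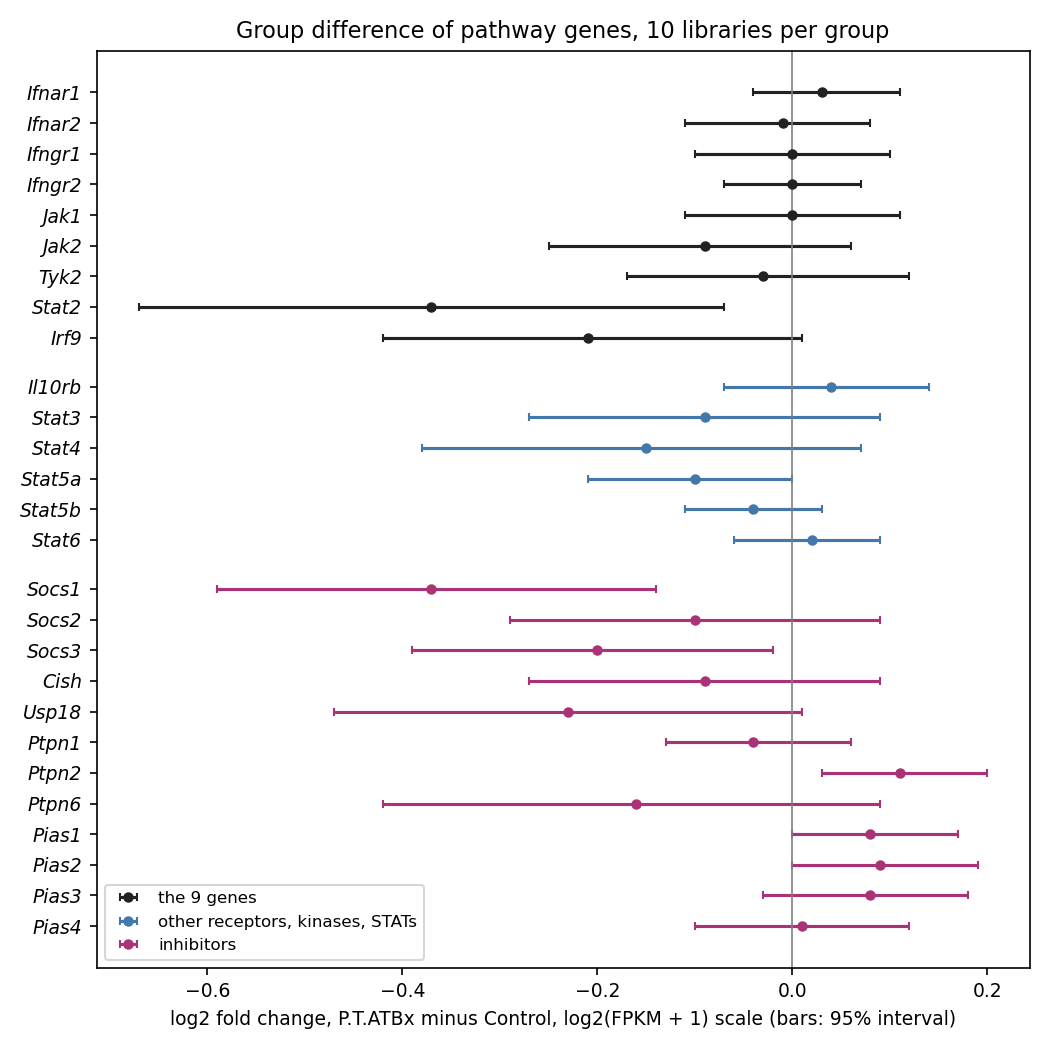
Log2 fold change on the horizontal axis (negative where P.T.ATBx was lower, log2(FPKM + 1) scale) with its 95% interval for the 9 genes, 6 other receptor and STAT genes and 12 inhibitors, from 10 libraries per group. The 4 receptor genes lie at 0 with short bars, and Stat2 (-0.37) and Socs1 (-0.37) lie furthest to the left, none past the adjusted threshold.

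A ratio of 2 genes within a library does not depend on how that library was scaled. Ifnar2 was at 2.34 ± 0.1 times Ifnar1 in Control and 2.26 ± 0.14 in P.T.ATBx, and Ifngr2 at 0.616 ± 0.029 and 0.616 ± 0.044 times Ifngr1. Neither receptor changed its chain ratio past the threshold (log2 differences of -0.05, SE 0.035, and 0.00, SE 0.04, two-sided permutation tests with 100000 resamples, adjusted p = 0.252 and 0.994 over 6 ratios). For Tyk2 over Jak1 the log2 difference was -0.03 (SE 0.062, adjusted permutation p = 0.756).

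The ratio of Stat2 to Jak1 was 0.504 ± 0.12 for Control against 0.38 ± 0.054 for P.T.ATBx, with the Control median above all 10 P.T.ATBx libraries. The log2 difference was -0.38 (SE 0.13, two-sided permutation p = 0.00969, adjusted p = 0.0581), which missed the threshold. Without Control 1 and Control 3, a choice added after the values were seen, it was -0.47 and passed (adjusted permutation p = 0.00237). The ratio of Irf9 to Stat2 was 0.881 ± 0.13 for Control against 0.981 ± 0.05 for P.T.ATBx, with all 10 P.T.ATBx libraries at or above the Control median. Its log2 difference was 0.17 (SE 0.069, adjusted permutation p = 0.0833), and without Control 1 and Control 3 it was 0.25 and passed (adjusted permutation p = 0.0012). Jak2 over Jak1 was 0.487 ± 0.052 and 0.454 ± 0.017, with a log2 difference of -0.10 (SE 0.054, adjusted permutation p = 0.177) that became -0.13 and passed without the same 2 libraries (adjusted permutation p = 0.0259). Of single libraries, leaving out Control 3 alone made all 3 of these ratios pass (adjusted permutation p = 0.00282, 0.00714 and 0.0212). Leaving out Control 1 alone made Stat2 over Jak1 and Irf9 over Stat2 pass (both adjusted permutation p = 0.0394), and leaving out Control 2 made Stat2 over Jak1 pass (adjusted permutation p = 0.0333). These 3 calls therefore turn on which Control libraries are included.

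**Figure D3:**
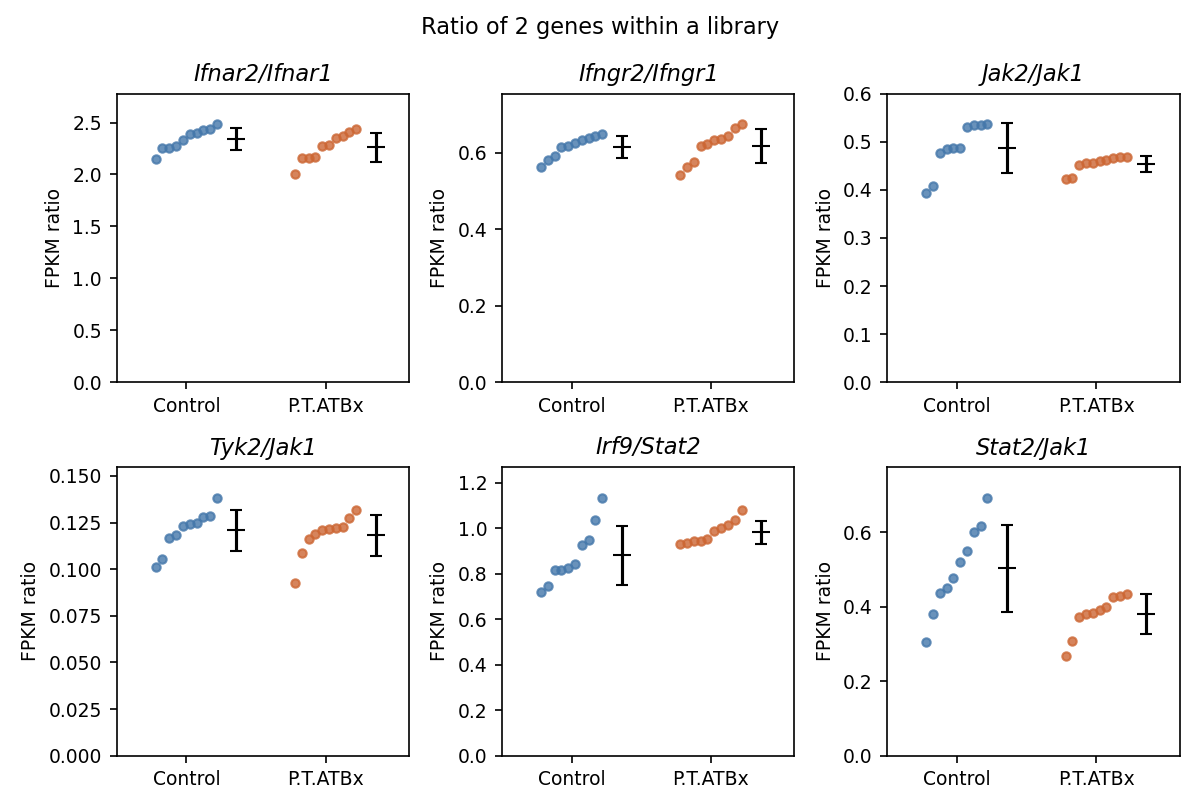
Ratio of the FPKM of 2 genes within a library (vertical axes from 0), 1 point per library ordered by value, with mean and SD beside the points, for 10 Control and 10 P.T.ATBx libraries. Receptor chain ratios are alike in both groups, and Stat2 over Jak1 is 0.504 on average in Control against 0.38 in P.T.ATBx, with overlap.

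Within each group, on the deposited scale, all 3 pairs among Stat2, Irf9 and Tyk2 passed by Pearson's r as moving together from library to library. By Spearman's rho, Tyk2 with Irf9 in Control did not pass (rho = 0.72, adjusted permutation p = 0.113). Its r was 0.55 without the 2 libraries farthest from the median of Tyk2. The scale matters here: with values divided by the sum of their library (TPM), 34 of 36 pairs passed in each group, against 8 and 7 on the deposited scale, and the library sums by which all genes are then divided differ from 556770 to 752782. Stat2 and Irf9 moved together in both groups (Control, Pearson r = 0.96, permutation p = 7e-05, Spearman rho = 0.95, permutation p = 0.00015, and P.T.ATBx, r = 0.97, permutation p = 0.00018, rho = 0.93, permutation p = 0.00028). Adjusted over 72 relations (36 pairs in 2 groups) these were 0.00252 and 0.00288 for r and 0.0101 in both groups for rho. Without the 2 libraries farthest from the median of Stat2, r was 0.93 in Control against 0.82 in P.T.ATBx. Over the 72 relations 8 passed in Control against 7 in P.T.ATBx by Pearson's r, and 4 and 5 by Spearman's rho.

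Tyk2 moved with Stat2 as well (r = 0.88 and rho = 0.88 in Control, r = 0.98 and rho = 0.88 in P.T.ATBx, adjusted permutation p = 0.0045 and 0.00252 for r and 0.0178 in both for rho), although its mean hardly differed between the groups. Without the 2 libraries farthest from the median of Tyk2, r was 0.81 and 0.87. Jak2 moved with Stat2 in Control (r = 0.94, rho = 0.90, adjusted permutation p = 0.00288 and 0.0167, and r = 0.91 without 2 libraries). In P.T.ATBx Jak2 and Stat2 had r = 0.80 and rho = 0.70 (adjusted permutation p = 0.0274 and 0.129), and r = 0.56 without 2 libraries, so there the relation rests on those libraries. Jak2 also passed with Irf9 in Control (r = 0.88, rho = 0.88, adjusted permutation p = 0.0118 and 0.0188), with r = 0.69 in P.T.ATBx (adjusted permutation p = 0.0982). With Tyk2, Jak2 had r = 0.93 in Control and 0.81 in P.T.ATBx (adjusted permutation p = 0.00288 and 0.02). By rho that pair had 0.77 and 0.84 (adjusted permutation p = 0.0687 and 0.0298). Jak1 moved with Jak2 by r alone (0.74 in Control against 0.87 in P.T.ATBx, adjusted permutation p = 0.0466 and 0.00288, rho = 0.79 and 0.71, adjusted permutation p = 0.0581 and 0.12), and r was 0.47 and 0.72 without 2 libraries. Without Control 1 and Control 3 the Control value of this pair was 0.70 and did not pass (adjusted permutation p = 0.17), and that of Tyk2 with Irf9 went from 0.80 (adjusted permutation p = 0.0441) to 0.75 (adjusted permutation p = 0.0929). By rho, 3 Control pairs no longer passed without Control 1 and Control 3. They were Tyk2 with Stat2, Jak2 with Stat2 and Jak2 with Irf9 (adjusted permutation p = 0.142, 0.111 and 0.0984). Without the 2 libraries farthest from the median of the first gene of each pair, 0 of the 72 relations passed after adjustment in either group.

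None of the 4 receptor genes passed with Stat2 on the deposited scale. In Control, r with Stat2 was 0.58 for Ifnar1, 0.59 for Ifnar2, -0.22 for Ifngr1 and 0.21 for Ifngr2, and in P.T.ATBx it was 0.30, 0.41, 0.55 and 0.06, none past the adjusted threshold. With quantile normalization 0 of 4 passed in either group, while on the TPM scale 3 of 4 passed in Control (r from 0.47 to 0.82) and 4 of 4 in P.T.ATBx (0.78 to 0.87). Among themselves, Ifnar1 moved with Ifngr2 in P.T.ATBx (r = 0.85, rho = 0.90, adjusted permutation p = 0.013 and 0.0167), where r was 0.79 without 2 libraries, and had r = 0.61 in Control (adjusted permutation p = 0.159). Ifnar1 and Ifnar2 had r = 0.82 in Control (adjusted permutation p = 0.0444), but rho = 0.41 (adjusted permutation p = 0.474) and r = 0.55 without 2 libraries, so that relation rests on those libraries. Without Control 1 and Control 3 it was 0.34 (adjusted permutation p = 0.557). Whether any correlation differed between the groups was not tested.

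**Figure D4:**
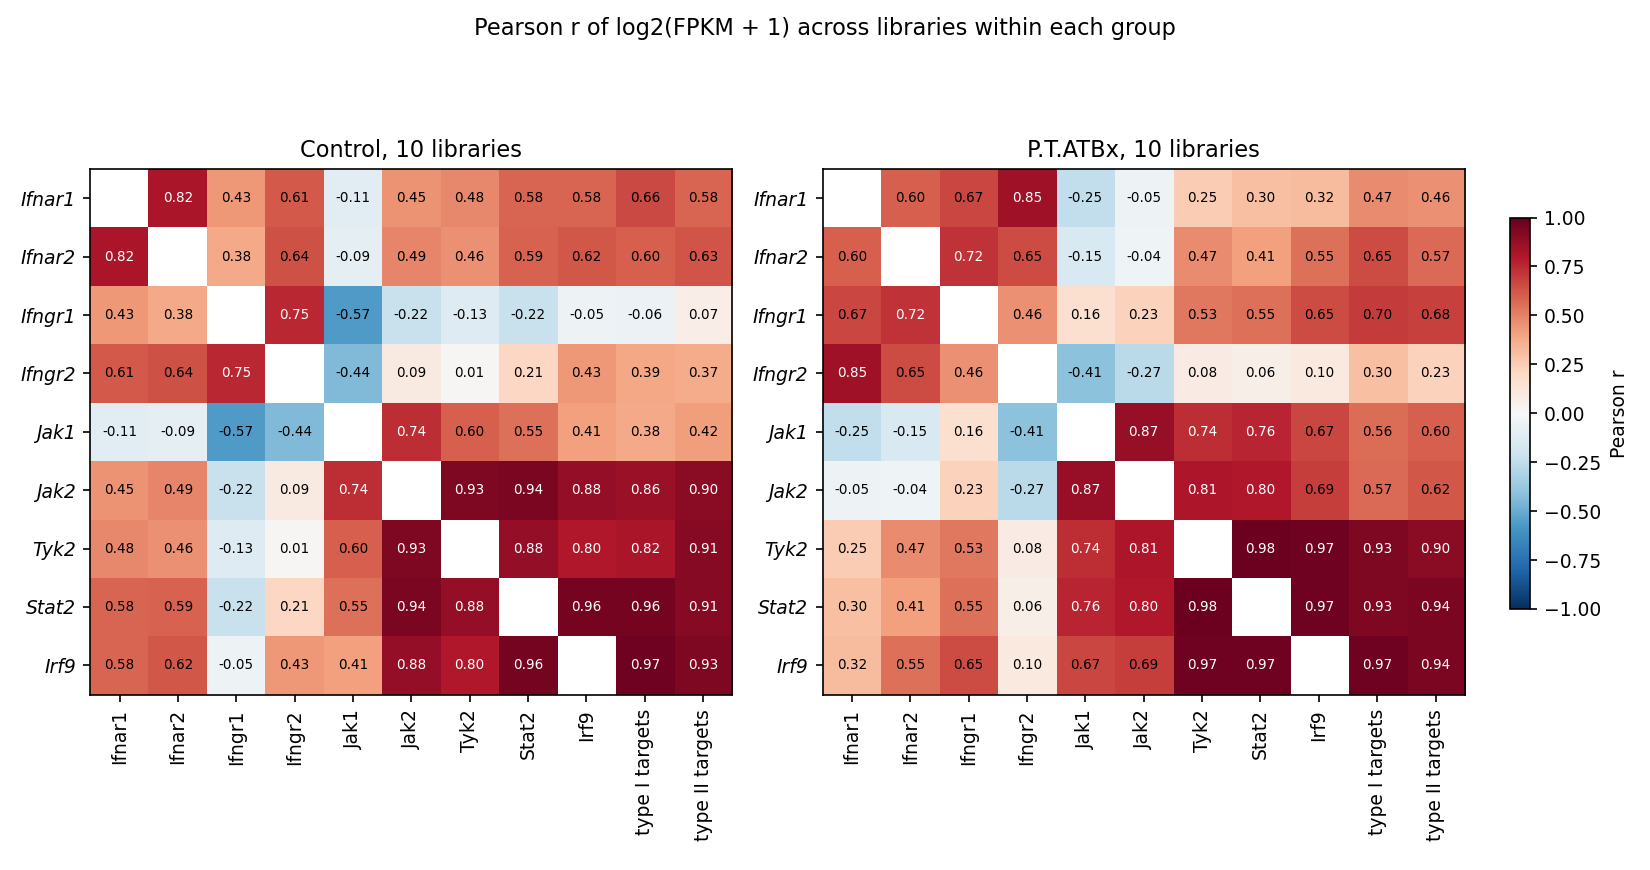
Pearson r of log2(FPKM + 1) across the 10 libraries of each group for pairs of the 9 genes and for each gene with the mean level of 30 type I and 25 type II interferon targets. Tyk2, Stat2 and Irf9 form a block of high r with the targets in both groups (0.80 to 0.98), while the most negative values are those of Jak1 with Ifngr1 in Control (-0.57) and with Ifngr2 (-0.44 and -0.41). Without Control 1 and Control 3 the Control values of both are positive (0.09 and 0.19).

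The readout of the pathway was taken from interferon target genes that are not among the 9. All 30 genes of a type I list (such as Isg15, Ifit1 and Oasl2) had negative log2 fold changes, with a median of -0.16. Over all genes 48.5% were negative. The genes of a list share their libraries and can move together, so these signs are not 30 separate observations. The mean centred log2(FPKM + 1) of the list averaged 0.09 ± 0.27 over Control libraries against -0.09 ± 0.25 after P.T.ATBx. The lowest values were those of P.T.ATBx 2 (-0.56) and P.T.ATBx 1 (-0.448), and the group difference of this mean was not tested. Of the 30, 0 passed and 3 were lower at an unadjusted p under 0.05 (limma), beside 6.08% of all genes. All 25 genes of a type II list (such as Irf1, Gbp2 and Cxcl9) were negative too, with a median of -0.31, and 1 was lower past the threshold, Ido1, beside 0.383% of all genes tested, with 6 lower at an unadjusted p under 0.05 (limma). Ido1, a tryptophan-degrading enzyme, had log2 fold change -1.16 (SE 0.25, adjusted p = 0.031, limma). The 25 signs are not separate observations either. The same mean for the type II list averaged 0.18 ± 0.36 over Control libraries against -0.18 ± 0.40 after P.T.ATBx, a difference also not tested. It was lowest in P.T.ATBx 2 (-0.906) and P.T.ATBx 1 (-0.775). Of the type I list, the smallest p belonged to the nucleotide kinase gene Cmpk2 (-0.34), the membrane tether Bst2 (-0.22), the nucleic acid sensor Zbp1 (-0.42) and Xaf1 (-0.17), and of the type II list, after Ido1, to the GTPase genes Iigp1 (-0.54), Igtp (-0.53) and Irgm2 (-0.47), with adjusted p from 0.098 to 0.431 (limma).

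Irf9 tracked the type I targets most closely of the 9 genes: with the mean centred log2(FPKM + 1) of the 30 genes, r was 0.97 in both groups and rho 0.94 in Control against 0.92 in P.T.ATBx (permutation p = 3e-05 and 2e-05 for r and 0.00023 and 0.00043 for rho). Adjusted over 36 relations these were 0.00036 in both for r and 0.00276 and 0.00331 for rho, and r was 0.94 and 0.92 without the 2 libraries farthest from the median of Irf9. Stat2 had r = 0.96 in Control against 0.93 in P.T.ATBx (rho = 0.93 and 0.83, adjusted permutation p = 0.00036 and 0.00176 for r and 0.00331 and 0.0192 for rho), with 0.93 and 0.73 without 2 libraries. Tyk2 had r = 0.82 and 0.93 (rho = 0.70 and 0.81, adjusted permutation p = 0.01 and 0.00255 for r and 0.0884 and 0.0235 for rho), with 0.61 and 0.70 without 2 libraries. Jak2 had r = 0.86 (rho = 0.82, adjusted permutation p = 0.00587 and 0.0219) in Control, with 0.81 without 2 libraries, and r = 0.57 in P.T.ATBx (adjusted permutation p = 0.128). The mean centred level of these targets ran from -0.38 to 0.44 in Control, lowest in Control 3, which was also lowest in Stat2 and Irf9. It ran from -0.56 to 0.25 in P.T.ATBx, where P.T.ATBx 1 and P.T.ATBx 2 were the 2 lowest libraries for the targets and for both genes.

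With the type II targets r was 0.93 and 0.94 for Irf9, 0.91 and 0.94 for Stat2 and 0.91 and 0.90 for Tyk2 in Control and P.T.ATBx (adjusted permutation p from 0.00036 to 0.00435). By rho these were 0.96 and 0.84, 0.95 and 0.89, and 0.78 and 0.67, where Tyk2 in P.T.ATBx did not pass (adjusted permutation p = 0.101) and the other 5 did (from 0.00216 to 0.0323). Jak2 passed in Control (r = 0.90, rho = 0.87, adjusted permutation p = 0.00134 and 0.013, and r = 0.89 without 2 libraries) and had r = 0.62 in P.T.ATBx (adjusted permutation p = 0.101). For Irf9, Stat2 and Tyk2, r without 2 libraries was 0.89 and 0.74, 0.84 and 0.79, and 0.79 and 0.58. For the receptors and Jak1, r with either list ran from -0.06 to 0.70 and 0 of their 20 relations passed after adjustment on the deposited scale. With quantile normalization 0 of 10 passed in Control and 3 of 10 in P.T.ATBx, and on the TPM scale 7 of 10 and 10 of 10. By r, though not in every case by rho, Stat2, Irf9 and Tyk2 passed with both lists in both groups under all 3 scalings. Without Control 1 and Control 3, Control r with the type I targets was 0.96 for Irf9, 0.93 for Stat2, 0.81 for Jak2 and 0.76 for Tyk2, and Tyk2 no longer passed (adjusted permutation p = 0.0507). By rho, Jak2 in Control then passed with neither the type I nor the type II targets (adjusted permutation p = 0.198 and 0.0773). Tyk2 in Control no longer passed by rho with the type II targets (adjusted permutation p = 0.256).

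**Figure D5:**
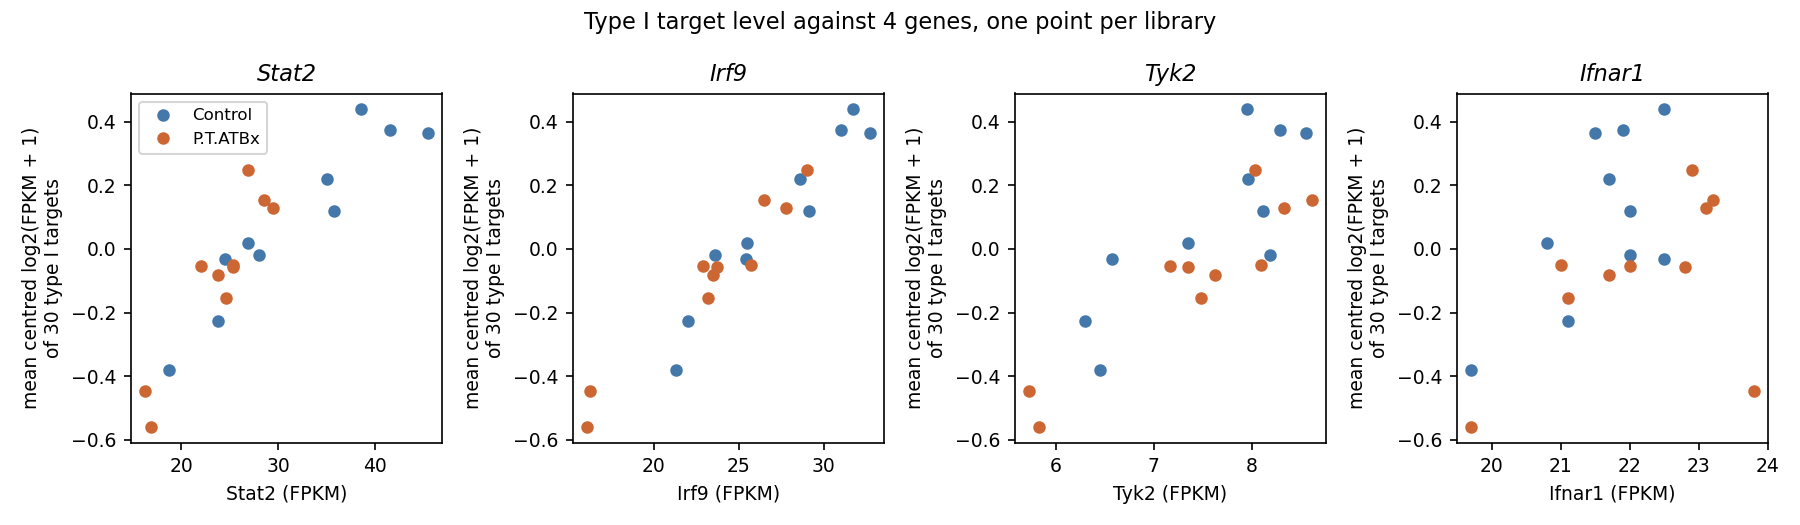
Mean centred log2(FPKM + 1) of 30 type I targets (vertical axis) against the FPKM of Stat2, Irf9, Tyk2 and Ifnar1 (horizontal axes, not starting at 0), 1 point per library, coloured by group. Points rise along a line for Irf9 and Stat2 in both groups, and P.T.ATBx 1, the library highest in Ifnar1 at 23.8 FPKM, is among the lowest in targets.

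Markers of other cells moved with the same genes, in relations chosen after seeing the data. With Ifng, the interferon gamma gene made by T and NK cells, Irf9 had r = 0.88 in Control against 0.77 in P.T.ATBx and Stat2 had 0.82 and 0.85 (rho = 0.89, 0.67, 0.83 and 0.84, adjusted permutation p over 72 relations from 0.014 to 0.0406 for r and from 0.041 to 0.147 for rho). Without 2 libraries r fell to 0.74, 0.36, 0.64 and 0.69. With the 4 T cell markers, Stat2 had r = 0.30 in Control against 0.89 in P.T.ATBx (rho = 0.39 and 0.92, adjusted permutation p = 0.428 and 0.0122 for r and 0.327 and 0.0353 for rho), with 0.17 and 0.86 without 2 libraries. With Ptprc, Stat2 had 0.56 and 0.85 (rho = 0.45 and 0.87, adjusted permutation p = 0.172 and 0.0262 for r and 0.311 and 0.0536 for rho), with 0.47 and 0.82 without 2 libraries. With the 6 macrophage markers, Stat2, Tyk2 and Irf9 had r = 0.83, 0.80 and 0.79 in P.T.ATBx (adjusted permutation p = 0.0262, 0.0326 and 0.0326). Their rho there did not pass (adjusted permutation p from 0.0728 to 0.132). In Control r was 0.52, 0.67 and 0.62, none past the threshold. The part of T cell, macrophage or leukocyte number in the spread of Stat2, Irf9 and Tyk2 was not tested.

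Genes whose level ran most like each of the 9, by the lower of the 2 within-group Pearson r over 10 libraries each, were listed as a description. Around Stat2 these were the antiviral genes Oasl2 (0.96), Dtx3l (0.95) and Ifit2 (0.94), and around Irf9 the chemokine Cxcl10 (0.96), Ifit1 (0.94) and Ifit3 (0.94), whose reads may be shared with the near copy Ifit3b. Around Tyk2 they included Nlrc5 (0.95), the activator of MHC class I genes, and the peptide transporter Tap1 (0.93). Jak2 ran with Tnfaip2 (0.92) and Pitpnm1 (0.91) among others, and Jak1 like the endocytic receptor gene Ly75 (0.93), the spectrin gene Sptbn1 (0.92) and the nucleoporin gene Nup98 (0.92). Among the receptors, Ifngr2 ran with the myeloid signalling adaptor Tyrobp (0.88), Slc31a2 (0.86) and Snx10 (0.82), and Ifnar1 with the granzyme B inhibitor gene Serpinb9 (0.87), Dennd1b (0.86) and the phagocytic receptor gene Mertk (0.83). Ifnar2 ran with Gzmc (0.84), Itm2b (0.83) and the MHC class I light chain B2m (0.82), and Ifngr1 with Gimap7 (0.83), Ucp2 (0.82) and the T cell receptor gene Cd3d (0.81). The number of genes with a lower r of at least 0.8 was 203 for Jak1, 144 for Stat2, 130 for Tyk2, 110 for Irf9 and 68 for Jak2, and 10, 7, 3 and 9 for Ifnar1, Ifnar2, Ifngr1 and Ifngr2. The same number was not counted for other genes, so whether these are high or low for a gene of the table is not known. Points of such a comparison share a library and its composition.

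As for ligands, the table held 21 interferon ligand genes, 13 of them listed at 0 in every library, and 7 more were below the filter with at most 0.593 FPKM. Ifnb1, the interferon beta gene, was at 0 to 0.298 FPKM in Control, at 0 in 3 libraries, and up to 0.593 in P.T.ATBx, at 0 in 1 library. Only Ifng was tested, at 0.765 to 5.21 FPKM in Control against 0.7 to 2.94 in P.T.ATBx, with log2 fold change -0.42 (SE 0.19, adjusted p = 0.349, limma).

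Of 6 tested genes among other receptors, kinases and STATs, 0 passed, with 4 negative and a median log2 fold change of -0.07. An unadjusted p under 0.05 was found for 0 of the 6 (limma), beside 13.6% of all genes tested. The smallest p belonged to Stat5a (-0.10, with the Control median above all 10 P.T.ATBx libraries, adjusted p = 0.379, limma), Stat4 (-0.15), Stat5b (-0.04) and Stat3 (-0.09), transducers of other cytokines as well. Il10rb, inside the receptor cluster, was at 33 ± 2.78 and 33.9 ± 2.54 FPKM (change of 0.04 in log2, adjusted p = 0.786, limma). Ifnlr1, the specific chain of the interferon lambda receptor, was below the filter, at 0.124 to 0.773 FPKM, and Jak3 was listed at 0 in all 20 libraries. Ptpn11, a phosphatase gene that nearly all cells use and 1 of the 13 inhibitors, was also at 0 in 19 of 20 libraries, so a listed 0, also that of a ligand gene, may be a failed estimate and is not read as absence.

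Among 12 tested inhibitors of the pathway 0 passed, with 1 higher and 2 lower at an unadjusted p under 0.05 (limma), beside 13.6% of all genes in either direction and 6.08% lower, 7 negative and a median of -0.06. Socs1, an interferon-induced inhibitor that blocks JAK kinases, was at 9.21 to 18.7 FPKM in Control against 6.5 to 12.7 in P.T.ATBx, the Control median above all 10 P.T.ATBx libraries (log2 fold change -0.37, SE 0.11, adjusted p = 0.116, limma). Socs3, which blocks signalling by interleukin 6 family receptors, had -0.20 (adjusted p = 0.306, limma). In the other direction, Ptpn2, a phosphatase that acts on JAK1, was at 37.2 ± 1.86 FPKM for Control against 40.4 ± 2.75 for P.T.ATBx, with the Control median above 1 of 10 P.T.ATBx libraries (log2 fold change 0.11, SE 0.039, adjusted p = 0.184, limma). Pias1, a SUMO ligase that inhibits STAT proteins, had 0.08 (adjusted p = 0.379, limma).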

How the data were processed

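The authors deposited 1 table of FPKM, per the file name, with 1 column for each of 20 tumour libraries and an Entrez number and symbol for each of 23402 genes. Per the labels' protocols, column-purified total RNA was made into stranded libraries, and the build was mm10, per the submitters' processing notes. The sources used here do not give the aligner, counting tool, annotation or use of strand. Median-of-ratios factors computed from the values ran from 0.999 to 1.001, so the deposited FPKM were already level between libraries by that measure. FPKM is not a count, read depth is unknown, and no counting interval was computed.

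Values were used as log2(FPKM + 1). The 12788 genes with a mean FPKM of at least 0.5 entered a limma 3.58.1 model (R 4.3.3) with group as its single term, robust and trended eBayes and two-sided tests, adjusted by Benjamini-Hochberg at 0.05. On simulated data with 12788 genes, 68% of genes changed 1.25-fold and 96% of those changed 1.5-fold were recovered for this comparison. The changed genes were drawn at random, and the median SE over all genes was 0.06. Stat2 (SE 0.14) and Irf9 (SE 0.10) vary more, and recovery at their SE was not simulated. These shares therefore do not tell how often a change of their size would be missed. Ratios and correlations used two-sided permutation tests with 100000 resamples. A library stood apart when its median Spearman correlation to the others was over 3 scaled median absolute deviations below the median of all. Same-numbered libraries were checked for pairing and were not paired (closing section). The genes named were all 9; Ifnb1 and Ifng; of each pathway list, those past the threshold and the 4 with the smallest p; and 3 most-like genes for each of the 9, predicted genes left out. Of the genes these rules pick, 2 are not reported here, and the list of other receptors, kinases and STATs is counted without 1 of them. Il10rb, Ifnlr1, Jak3, Ptpn11 and genes given as examples of a list or marker were chosen after values were seen. The 9 genes and the lists were chosen with earlier results of these data known. Alternatives were another pseudocount (0.1), no filter or one at a mean of 1, 3 scalings, array weights, plain eBayes, the replicate block, Ptprc as a covariate, and leaving out libraries.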

Additional observations from a re-analysis of the deposited data

Results flagged for a closer look

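Among 30 groups of 10 values checked (9 genes and 6 ratios in each group), 1 value lay apart from the rest of its group. Ifngr1 was at 77.9 FPKM in Control 1, with the next highest Control library at 69.1, a gap of 0.49 of the range of the group against a critical value of 0.466. Control 1 is also 1 of the 2 libraries that stood apart in composition, and without it the log2 fold change of Ifngr1 was 0.029. Chance flags about 1 in 20 such groups.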

How the results depend on the processing

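In all 31 alternative fits 0 of the 9 genes passed (limma), and Ifnar1, Jak2, Stat2 and Irf9 kept their sign. The values near 0 did not: leaving out 1 library in turn, Ifnar2 ran from -0.041 to 0.01, Ifngr1 from -0.018 to 0.029, Ifngr2 from -0.0081 to 0.019, Jak1 from -0.033 to 0.026 and Tyk2 from -0.053 to 0.0071. Ifngr2 had -0.00083 after quantile normalization, and Jak1 0.0008 on the TPM scale and 0.0043 with Ptprc as a covariate. Over all genes 59 were higher and 49 lower, against 20 and 29 on the TPM scale, 154 and 152 with array weights, 115 and 106 with Ptprc as a covariate and 76 lower without Control 1 and Control 3. Leaving out 1 library gave 38 (P.T.ATBx 4) to 104 (Control 1) higher and 31 to 89 lower by the same 2 libraries, with 78 lower without Control 2. With the replicate number as a block, Stat2 had -0.37 (adjusted p = 0.133, limma) and Irf9 -0.21 (adjusted p = 0.16, limma), 65 genes were higher and 59 lower, and no call of the 9 genes changed. Same-numbered libraries share only a number: their deviations from the group means correlated from -0.315 to 0.393, over 0.1 for 5 of 10 numbers, and 3 of 10 Control libraries correlated best with their own number.

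Of the ratios, leaving out 1 library gave -0.015 to 0.021 for Ifngr2 over Ifngr1, -0.059 to 0.0077 for Tyk2 over Jak1, -0.13 to -0.08 for Jak2 over Jak1, 0.14 to 0.21 for Irf9 over Stat2 and -0.46 to -0.33 for Stat2 over Jak1. Without Control 1 and Control 3 the last 3 were -0.13, 0.25 and -0.47. Pairs of the 9 genes past the threshold numbered 8 in Control and 7 in P.T.ATBx, 34 and 34 on the TPM scale, 0 and 0 without the 2 libraries farthest from the median, and 5 in Control without Control 1 and Control 3. Relations with the target lists numbered 8 and 6, then 15 and 18 on the TPM scale and 5 and 1 without the 2 farthest libraries. Those with Ifng and cell markers numbered 4 and 12, then 21 and 31 on the TPM scale, 7 in Control after quantile normalization, and 0 and 0 without the 2 farthest libraries. The cause of these shifts was not tested. The unknown read depth limits what can be said of ligand genes near 0.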

Other observations

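Proteins that handle the receptors and the STAT complex after activation were measured beside the 9 genes. Of 10 tested genes 0 passed, with 5 negative, 5 positive and a median log2 fold change of -0.01. At an unadjusted p under 0.05 there was 1 (limma), beside 13.6% of all genes tested. That 1 was Csnk1a1, a casein kinase that can mark IFNAR1 for removal, with Control at 142 ± 3.67 FPKM and P.T.ATBx at 151 ± 9.2 (± SD over 10 libraries; log2 change 0.09 with SE 0.035, adjusted p = 0.27, limma). Btrc, part of the ubiquitin ligase that takes up IFNAR1, had 4.65 ± 0.344 and 4.9 ± 0.173 FPKM (0.06, adjusted p = 0.481, limma), with the Control median above 2 of 10 P.T.ATBx libraries. The Mediator gene Med14 (0.05) and the nuclear import gene Kpnb1 (-0.05) had the next smallest p.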
